A study of Homo sapiens with 6 samples.

Results

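FGA, FGB and FGG encode the 3 chains of fibrinogen, and FGL1 encodes a secreted liver protein that carries a fibrinogen-like domain. These 4 genes were taken by symbol from the deposited count table, as 4 of its 20030 genes. The table holds mRNA sequencing counts of HepG2, an established human hepatoma line that keeps many hepatocyte genes active. HepG2 cells carrying a control short hairpin RNA (sh-ctrl, 3 libraries) were compared with HepG2 cells carrying a short hairpin RNA against KIF11 (sh-KIF11, 3 libraries). KIF11 is the kinesin motor that pushes spindle poles apart in mitosis, and the hairpin is trimmed by the cell into a small RNA through which mRNA of the matching sequence is cut. By the study's methods, hairpins were carried by the lentiviral vector pLKO.1 and infected cells were selected with puromycin, which applies to the control too. The labels do not say whether the 3 libraries of a group came from separate cultures, and p-values therefore measure the spread between these libraries, which may be technical.

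Fibrinogen is a secreted hexamer built from paired Aα, Bβ and γ chains, which hepatocytes join by disulphide bonds in the endoplasmic reticulum. Thrombin turns it into fibrin, and interleukin-6 raises transcription of all 3 chain genes together during the acute phase response, through STAT3 and C/EBP factors. In HepG2 cells the Bβ chain, made from FGB, has long been described as the chain in shortest supply for assembly. FGL1 lacks the parts of fibrinogen that thrombin cuts, also responds to interleukin-6, and binds the inhibitory T cell receptor LAG3.

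The chain genes are neighbours on the long arm of chromosome 4 (GRCh38, GENCODE 29). FGB lies at chr4:154562956-154571086 on the plus strand. FGA follows at chr4:154583126-154590766 and FGG at chr4:154604134-154612967, both on the minus strand. The 3 genes span 50012 bases, with gaps of 12039 and 13367 bases between them, and no other annotated gene overlaps any of them. Because the question is how evenly the 3 neighbours moved, the 250 bases before a RefSeq start (GRCh38.p14) were searched for motifs, at chr4:154590743-154590992 for FGA, chr4:154562730-154562979 for FGB and chr4:154612657-154612906 for FGG. The RefSeq starts lie downstream of the outermost GENCODE starts, so 24 bases of the FGA and FGB windows and all 250 of the FGG window fall within the annotated genes. The parts of the FGA and FGB windows outside the genes, 226 bases each at chr4:154590767-154590992 and chr4:154562730-154562955, are shown 5′ to 3′ on the strand of the gene. The table lists 2 starts for FGB, and the one nearest the GENCODE start was taken. Capitals mark CTGGGA (the core of the interleukin-6 response element) and TTGCNNAA (a C/EBP site), searched on both strands.
FGA: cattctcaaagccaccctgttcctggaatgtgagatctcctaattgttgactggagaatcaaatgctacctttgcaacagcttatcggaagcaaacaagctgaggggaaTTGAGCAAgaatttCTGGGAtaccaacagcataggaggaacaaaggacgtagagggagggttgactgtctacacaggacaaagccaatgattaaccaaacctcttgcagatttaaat
FGB: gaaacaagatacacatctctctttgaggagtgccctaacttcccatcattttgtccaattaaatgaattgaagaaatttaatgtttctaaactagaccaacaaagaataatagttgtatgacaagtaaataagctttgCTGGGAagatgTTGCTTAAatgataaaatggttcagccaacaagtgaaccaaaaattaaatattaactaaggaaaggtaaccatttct
The CTGGGA core began 127 bases before the start in FGA, 112 in FGB and 161 in FGG, with another copy on the opposite strand 42 bases before the start of FGG. FGA held TTGCNNAA on the opposite strand at 141 bases and FGB held it at 101 bases, so FGA and FGB shared both motifs. The FGG window did not hold TTGCNNAA. Among 35116 windows of the same length, CTGGGA stood in 28.7% and TTGCNNAA in 9.05%, and no match of one overlapped a match of the other in the 3 windows. TATAAA stood in 10.7% of windows and in none of the 3. A match of letters is a description of the sequence and was not tested for factor binding.

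Library depth was even, with 18167773 to 19583282 counts per library. TMM factors, which set libraries on a common scale, were 0.922 to 0.926 in sh-ctrl against 1.08 to 1.09 in sh-KIF11, so the groups differed in composition and a change given below is relative to the bulk of genes. The targeted gene KIF11 was read 1976, 2088 and 2039 times in the sh-ctrl libraries against 1448, 1478 and 1240 times under its hairpin, and the groups did not overlap. Its normalised level was 116 ± 5.01 CPM (counts scaled to the effective library size, mean ± SD, n = 3) in sh-ctrl, against 68.8 ± 5.16 CPM with the KIF11 hairpin, at a log2 fold change of -0.75 (SE 0.0573). Of the 12369 genes with enough counts, 69.1% passed the test used throughout (edgeR, adjusted p under 0.05), 34.7% as lower (4294 genes) and 34.4% as higher (4254 genes) in sh-KIF11, whereas library totals alone gave 2373 lower and 6621 higher. The hepatocyte markers ALB, AFP and TF each had at least 18106 counts in every library.

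All 4 members were lower in sh-KIF11, and all 4 fell in both units that were deposited. FGA and FGG were 64.1% and 64.5% below sh-ctrl, FGB was 48.8% below and FGL1 43.7% below. Each gene was read deeply, with at least 1134 counts in every library. Because 34.7% of tested genes were called lower and 71.2% had groups that did not overlap, neither the calls nor the lack of overlap set the members apart. The size of their fall placed them further out, since 1.18% of tested genes fell more than FGA, 1.14% more than FGG, 3.92% more than FGB and 5.40% more than FGL1. In bulk RNA, fewer cells that express a gene and less mRNA per cell cannot be told apart.

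FGA, which encodes the Aα chain from which thrombin releases fibrinopeptide A, was counted 13548, 14890 and 14370 times in sh-ctrl, against 6507, 5882 and 5258 times after knockdown. On the normalised scale these were 760, 825 and 851 CPM against 324, 284 and 267 CPM. The lowest sh-ctrl library stood far above the highest sh-KIF11 library, and the groups did not overlap. The mean went from 812 ± 47.3 to 292 ± 29.6 CPM (n = 3 each), a log2 fold change of -1.48 (SE 0.0563, adjusted p = 4.00e-25, quasi-likelihood test of edgeR, Benjamini-Hochberg method). An exact two-sided permutation test over the libraries gave p = 0.1 for this gene and for each of the other members, which is the smallest value that 3 against 3 allows.

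FGG encodes the γ chain, which carries the site that platelets bind. Its sh-ctrl counts were 10223, 10984 and 11195, against 4780, 4430 and 4017 after knockdown. This gave 573, 609 and 663 CPM against 238, 214 and 204 CPM, again without overlap. The mean fell from 615 ± 45.4 to 219 ± 17.7 CPM, a log2 fold change of -1.49 (SE 0.0556, adjusted p = 1.87e-25 in the same edgeR test), and it differed from that of FGA by less than either SE.

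FGB, the gene of the Bβ chain, was the least abundant of the 3 and fell less. Counts of 2040, 2262 and 2207 in sh-ctrl stood against 1467, 1225 and 1134 after knockdown. The normalised levels were 114, 125 and 131 CPM against 73.1, 59.2 and 57.5 CPM. The first sh-KIF11 library was the highest of its group by a clear margin, but it was still below every sh-ctrl library. From 123 ± 8.35 to 63.3 ± 8.57 CPM, the log2 fold change was -0.96 (SE 0.0652, adjusted p = 9.18e-17, edgeR).

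FGL1 lies apart from the chain genes, at chr8:17864380-17910365 on the minus strand (GRCh38, GENCODE 29). An antisense gene, AC087273.1, and a long intergenic RNA gene, AC087273.2, overlap it on the plus strand, and the strand setting used in counting is not given in the sources used here, so reads of these genes may be included. FGL1 was counted 4285, 4362 and 4558 times in sh-ctrl, against 2979, 3105 and 2461 times after knockdown. These were 240, 242 and 270 CPM against 148, 150 and 125 CPM, with no overlap between groups. The mean went from 251 ± 16.8 to 141 ± 14.1 CPM, a log2 fold change of -0.83 (SE 0.0577, adjusted p = 2.46e-16, edgeR), the smallest change of the 4.

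**Figure D1:**
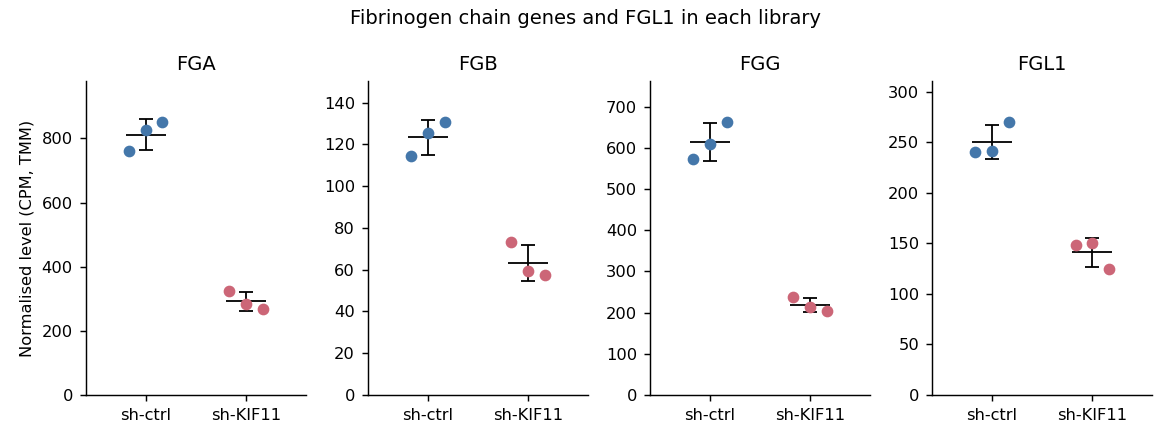
Normalised level of FGA, FGB, FGG and FGL1 in each library, in CPM after TMM scaling, on linear axes that start at 0 and differ between panels. Coloured points are the 3 libraries of sh-ctrl and of sh-KIF11, the wide black bar is the mean and the thin bar its SD; in every panel all sh-KIF11 points lie below all sh-ctrl points.

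Within each group the libraries fell in the same order for all 3 chains. In sh-KIF11 the first library was the highest and the third the lowest for FGA, FGB and FGG alike, with FGB 0.22 above its group mean on the log2 scale in the first library, FGA 0.16 above and FGG 0.13 above. In sh-ctrl the first library was the lowest and the third the highest for all 3. FGL1, too, was highest in the third library of sh-ctrl, but in sh-KIF11 its highest library was the second. These deviations are a description over 3 libraries per group, and counts from the same library share its scaling.

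How evenly the members moved was measured on the ratio of 2 members within each library, which needs no scaling between libraries. For the test, all libraries were scaled to the count of the reference member and the edgeR fit was repeated over all other tested genes. Relative to FGA 97.8% of genes passed, relative to FGB 91.6% and relative to FGG 98.0%, since most genes fell less than the chains. A pair that passed was thus the usual case in these fits, and the size of the difference is what describes a pair. The SE and interval of a pair rest on a spread shared with all genes under that scaling. They are not the spread of the ratio itself between libraries, which can be smaller. All 6 pairs were compared.

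The ratio of FGA to FGG did not differ beyond its spread. The FGA count was 1.33, 1.36 and 1.28 times the FGG count in sh-ctrl against 1.36, 1.33 and 1.31 times in sh-KIF11, and the groups overlapped. The change of FGA relative to FGG was 0.01 on the log2 scale (SE 0.107, 95% interval -0.20 to 0.22, adjusted p = 0.910, edgeR). The log2 ratio itself had an SD of 0.0396 in sh-ctrl and 0.0286 in sh-KIF11. An exact permutation test of the log2 ratio gave p = 0.7. A difference within that interval remains possible, so the genes are not shown to have moved alike.

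FGB moved differently from both. The FGA count was 6.64, 6.58 and 6.51 times the FGB count in sh-ctrl against 4.44, 4.80 and 4.64 times in sh-KIF11, with no overlap. FGA changed by -0.51 relative to FGB on the log2 scale (SE 0.143, 95% interval -0.79 to -0.23, adjusted p = 4.65e-04, edgeR). Relative to FGG, FGB changed by 0.52 (SE 0.112, 95% interval 0.30 to 0.74, adjusted p = 3.51e-06, edgeR). Here the FGB count was 0.200, 0.206 and 0.197 of the FGG count in sh-ctrl against 0.307, 0.277 and 0.282 of it in sh-KIF11. The spread of these ratios between libraries was small, with an SD of the log2 ratio of FGA to FGB of 0.0143 in sh-ctrl against 0.0573 in sh-KIF11.

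FGL1 fell less than FGA and FGG. Its count was 0.316, 0.293 and 0.317 of the FGA count in sh-ctrl against 0.458, 0.528 and 0.468 of it in sh-KIF11. The change relative to FGA was 0.65 on the log2 scale (SE 0.118, 95% interval 0.42 to 0.88, adjusted p = 4.60e-08, edgeR), and relative to FGG it was 0.66 (SE 0.110, 95% interval 0.45 to 0.88, adjusted p = 1.88e-09, edgeR). FGL1 and FGB could not be separated. The log2 ratio of their counts was 1.07, 0.95 and 1.05 in sh-ctrl against 1.02, 1.34 and 1.12 after knockdown, and the groups overlapped. The change of FGL1 relative to FGB was 0.14 (SE 0.146, 95% interval -0.14 to 0.43, adjusted p = 0.335, edgeR), with an exact permutation p of 0.3. This pair turned on single libraries, since without the first sh-KIF11 library the change was 0.21 (adjusted p = 0.0319, edgeR) and without the second it was 0.05.

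**Figure D2:**
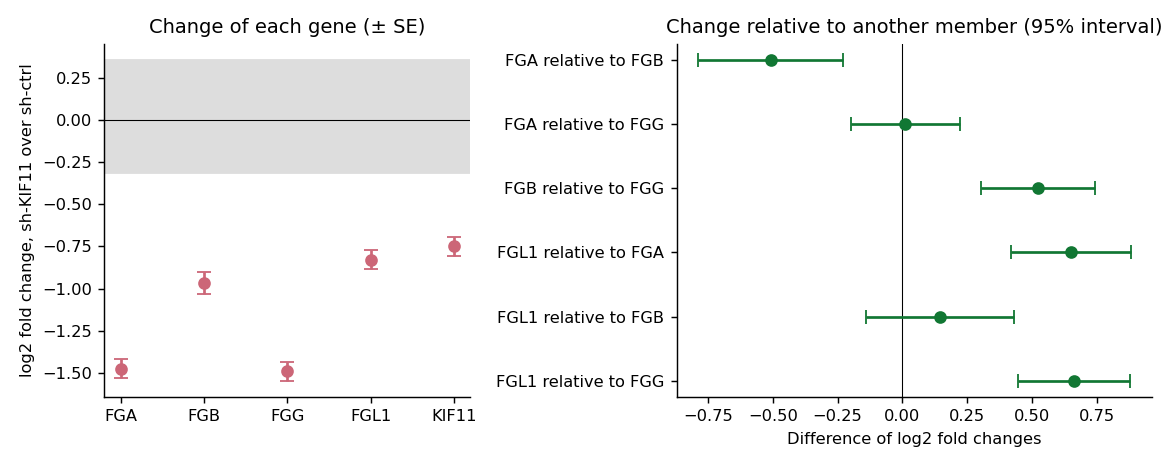
Left, log2 fold change of each member and of KIF11 in sh-KIF11 over sh-ctrl with its SE; the grey band spans the middle quartiles of all tested genes, from -0.31 to 0.36. Right, the difference of log2 fold changes for the 6 pairs with its 95% interval; FGA relative to FGG and FGL1 relative to FGB include 0, and the other 4 intervals do not.

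Levels of different genes can be set beside each other only per length, for which the deposited FPKM (fragments scaled to transcript length and library size) was used. In sh-ctrl the order was FGG at 232 ± 15.6 FPKM, FGA at 156 ± 7.46, FGL1 at 52.0 ± 3.29 and FGB at 26.8 ± 1.42 (n = 3 each), and no library broke this order. These levels ranked FGG 204th, FGA 318th, FGL1 1070th and FGB 2075th of the 20030 genes. In sh-KIF11 the order was the same, with FGG at 92.4 ± 7.38, FGA at 61.9 ± 5.91 and FGL1 at 31.3 ± 3.56 FPKM and FGB at 15.0 ± 2.01, and the ranks were 479, 800, 1756 and 3548. The order of FGG and FGA depends on the length assumed, because FGA had more counts than FGG in every library and stayed ahead of it when counts were divided by the GENCODE exon lengths of 3956 bases for FGA and 3600 for FGG.

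FGB took a larger share of the chain mRNA in sh-KIF11. Its part of the summed FPKM of the 3 chains was 6.49%, 6.42% and 6.43% in sh-ctrl, against 9.29%, 8.51% and 8.72% after knockdown. FGA went from 37.6% ± 0.623 to 36.6% ± 0.374 and FGG from 55.9% ± 0.639 to 54.6% ± 0.554. For each chain the groups did not overlap and the exact permutation p was 0.1, the smallest possible. The shares add up to the whole in each library, so a larger FGB share lowers the others and these are not 3 separate results. FPKM of FGG was 1.488 ± 0.0420 times that of FGA in sh-ctrl against 1.494 ± 0.0281 times in sh-KIF11. For that ratio the groups overlapped (exact permutation p = 0.7). With counts per kilobase of GENCODE exon in place of FPKM, a scale added after seeing the data, the FGB share went from 10.8% ± 0.0951 to 14.8% ± 0.586. FPKM of FGA was 5.83 ± 0.0880 times that of FGB in sh-ctrl against 4.14 ± 0.193 times in sh-KIF11. FPKM of FGG was 8.68 ± 0.128 and 6.19 ± 0.326 times that of FGB. The 3 chains together made up 0.143% ± 0.00884 of all counts in sh-ctrl against 0.0621% ± 0.00583 in sh-KIF11, and FGB remained the smallest part in both groups.

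**Figure D3:**
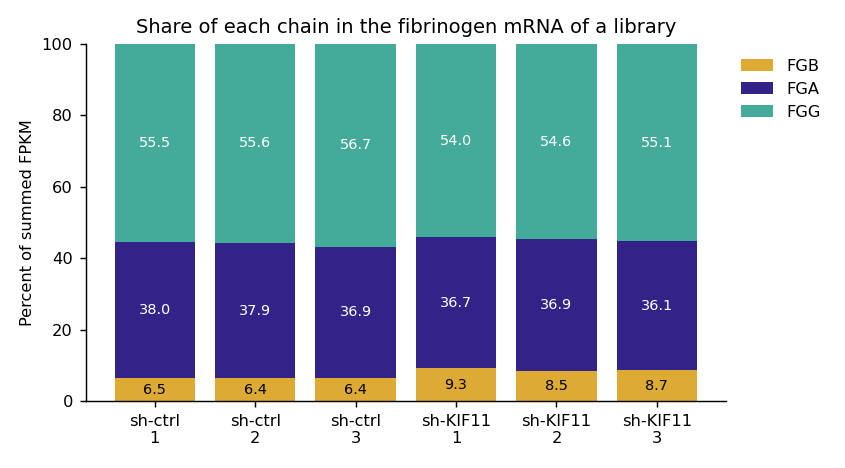
Share of FGB, FGA and FGG in the summed FPKM of the 3 chains, in percent, for each library. The FGB segment is 6.42% to 6.49% in sh-ctrl against 8.51% to 9.29% in sh-KIF11.

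None of the tested genes listed around the fibrinogen cluster was called lower. PLRG1, a splicing factor gene 12521 bases from the cluster, had 1131, 1137 and 1211 counts against 1361, 1288 and 1300 after knockdown. The fitted change was -0.02 on the log2 scale (SE 0.0618, adjusted p = 0.834, edgeR), and it was positive with upper-quartile factors, with library totals, with FPKM and with a stricter filter, and passed as higher with library totals and with limma on FPKM. LRAT, a retinol enzyme gene 13978 bases away on the other side, was at 0 counts in every library. Of 17 listed genes around the cluster 5 could be tested, of which PLRG1 is close and the others lie 857254 to 1223636 bases away. Of these 5, 2 passed as higher and none as lower, with a median of 0.11, against 34.4% higher and 34.7% lower over all tested genes. The 2 were TMEM131L (0.41) and TRIM2 (0.34). Scaled by library totals, or in FPKM with limma, 4 of the 5 tested genes passed as higher. With so few genes, the counts under the main scaling are not set apart from the shares over all tested genes.

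Around FGL1 the listed genes were mixed. MTUS1, a microtubule-associated tumour suppressor gene 63463 bases away, had 1714, 1737 and 1694 counts against 1509, 1617 and 1527. Its log2 fold change was -0.34 (SE 0.0537, adjusted p = 4.27e-07, edgeR), and with library totals alone it was -0.11 and did not pass. PCM1, a centriolar satellite gene 12475 bases away, had a log2 fold change of 0.07 (adjusted p = 0.187, edgeR), which passed as higher with library totals, upper-quartile factors or FPKM. Of 11 listed genes up to 639581 bases away 9 were tested, 4 passed as higher and 3 as lower, with a median of 0.07, and with library totals alone 5 were higher and 1 lower. Over all tested genes 34.4% passed as higher and 34.7% as lower, so a mix of calls was the usual case. Among the listed genes, ZDHHC2, a palmitoyltransferase gene, had the largest rise at 0.38, and PDGFRL the largest fall at -0.72.

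**Figure D4:**
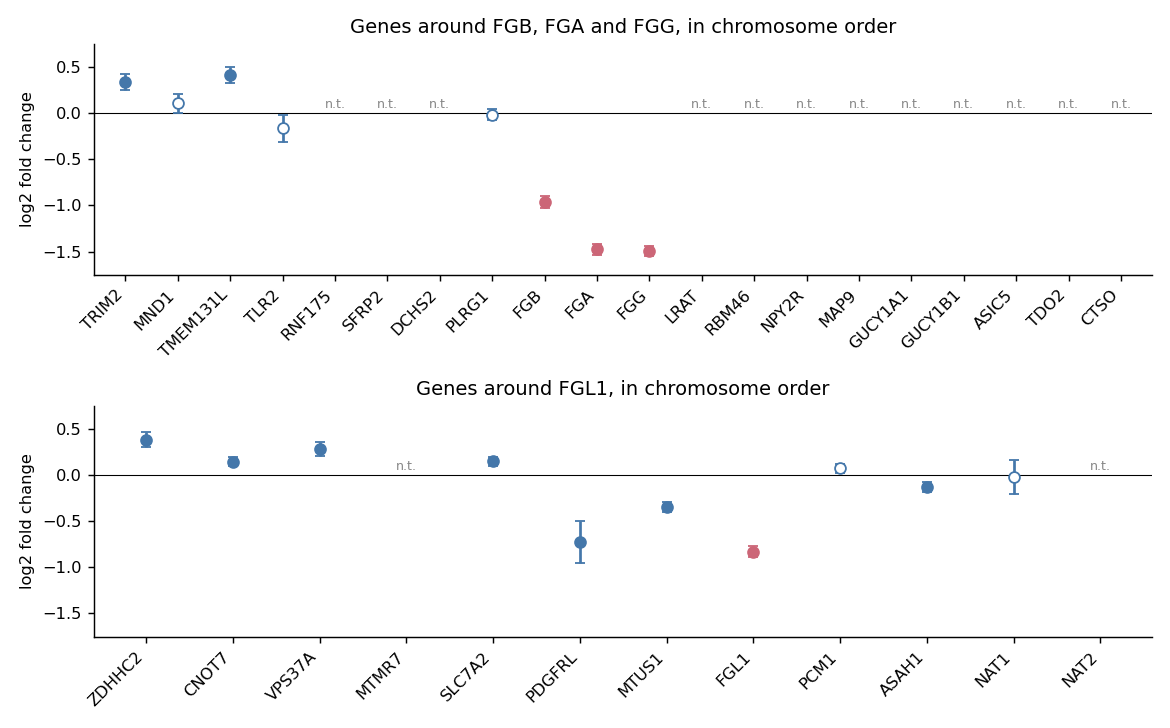
Log2 fold change with SE of the genes around the fibrinogen cluster (top) and around FGL1 (bottom), in chromosome order and not to distance. Red points are members, filled blue points are neighbours that passed, open points did not pass, and n.t. marks genes with too few counts to test; FGB, FGA and FGG lie between PLRG1 and LRAT, of which PLRG1 is near 0 and LRAT was not tested.

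Genes of the pathway that drives fibrinogen transcription moved unevenly. Of 22 listed regulators 21 were tested, 14 were lower and 3 higher, with a median log2 fold change of -0.36, against 0.00 over all tested genes. With library totals alone, 6 of them were higher and 11 lower. The counts of this and later lists stand beside 34.7% lower and 34.4% higher over all tested genes. IL6 itself had at most 1 count in any library. IL6ST, the signalling receptor subunit gp130, had 3656, 3988 and 3660 counts against 2868, 2857 and 2694, a change of -0.62 (adjusted p = 1.99e-14, edgeR). IL6R, the ligand-binding subunit, changed by -0.22, but by 0.01 with library totals alone. JAK2, a kinase that acts on STAT3, had the largest rise of the list at 1.37 (SE 0.127). STAT3 had 4812, 4753 and 4415 counts against 5073, 5123 and 4996, a value of -0.08 that did not pass (adjusted p = 0.149, edgeR) and that turned positive with library totals, upper-quartile factors or FPKM. It passed as higher with library totals (0.15, adjusted p = 0.00399, edgeR) and with limma on FPKM, and as lower without the third sh-ctrl library (-0.09, adjusted p = 0.0473, edgeR). SOCS3, the feedback inhibitor that STAT3 induces, was near the limit of the test, with 15 to 22 counts per library and -0.32 (adjusted p = 0.395, edgeR).

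Among the liver transcription factors, HNF4A, which had the highest CPM of the list averaged over all libraries, a measure not corrected for length, went from 321 to 232 CPM (-0.47, SE 0.0488). CEBPA fell by 0.36 and CEBPB by 0.63 on the log2 scale. CEBPD, an interleukin-6-responsive C/EBP factor, went from 40.4 ± 1.44 to 16.2 ± 1.97 CPM (-1.32, SE 0.0835). NR1H4, the bile acid receptor FXR, had the largest fall of the list at -1.45 (SE 0.0738), near the values of FGA and FGG, and its partner RXRA changed by -1.09 (SE 0.0578). NR3C1, the glucocorticoid receptor, rose from 32.7 ± 1.25 to 64.1 ± 3.86 CPM (0.97, SE 0.0688). Levels of mRNA do not measure the activity of these factors.

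Genes on a list of other acute phase genes and related plasma proteins were mostly lower as well. Of 22 listed, 17 were tested and 15 fell, none rose, and the median was -1.27, between the values of FGB and FGA. With library totals alone 14 were lower and 1 higher, and with limma on FPKM 15 were lower and 1 higher. SERPINA3 (α1-antichymotrypsin) had the largest fall, from 1000 ± 30.5 to 168 ± 21.9 CPM (-2.57, SE 0.0604). A2M (α2-macroglobulin), a plasma protein not established as an acute phase gene in human, had the highest average CPM of the list. Its level went from 5983 ± 232 to 2078 ± 255 CPM (-1.53, SE 0.0586). C3, the central complement component, had the smallest fall among those that passed (-0.62, SE 0.0511). CRP and SAA1, the strongest acute phase genes of human liver, were at 0 counts in all 6 libraries.

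Clotting and fibrinolysis genes other than the members split more evenly. Of 32 listed, 27 were tested, 17 were lower and 6 higher, with a median of -0.28, and with library totals alone 13 were lower and 8 higher. SERPINA5 (protein C inhibitor), with the highest average CPM of them, went from 746 ± 17.7 to 390 ± 16.2 CPM (-0.94, SE 0.0482), close to FGB. PLG (plasminogen, the precursor of the enzyme that digests fibrin) had 23, 26 and 17 counts against 3, 11 and 4, a value of -2.05 (SE 0.429). PLAU (urokinase, which activates plasminogen) had 18, 20 and 25 counts against 116, 97 and 155, a rise of 2.34 (SE 0.229).

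FGL1 has relatives that share the fibrinogen-like domain, but most had few or no counts in these cells. Of 20 listed, 7 were at 0 counts in every library and 7 could be tested, of which 4 were higher and 1 lower, with a median of 0.89. FIBCD1, a membrane receptor for acetylated sugars, had 11, 14 and 10 counts against 55, 69 and 62, which was the largest rise of the list (adjusted p = 6.70e-09, edgeR). ANGPTL2, a secreted angiopoietin-like protein with the highest average CPM of them, went from 7.05 ± 1.13 to 13.1 ± 1.12 CPM (0.89, SE 0.121). ANGPTL4, an inhibitor of lipoprotein lipase, was the one lower gene, with 16, 44 and 17 counts against 7, 19 and 10 (-1.28). Without the second sh-ctrl library, which holds the 44 counts, it was -0.67 and did not pass, and 3 genes of the list were called. LAG3, to which FGL1 binds on T cells, had 2 to 6 counts per library and was not tested. Of the 10 receptor genes 6 were tested, 3 were higher and 2 lower, with a median of 0.50, and with library totals alone 1 was lower. Fibronectin-receptor subunit ITGA5 rose by 1.79 on the log2 scale (SE 0.369), from few reads, with 9, 9 and 5 counts against 25, 31 and 36. ICAM1, which binds fibrinogen, fell by 0.93 and ITGB1, with the highest average CPM of the receptor genes, rose by 0.32 on the same scale.

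The machinery that folds, joins and secretes the chains was mostly lower. All 20 listed genes were tested, 16 were lower and 1 higher, with a median of -0.52, a smaller shift than any member showed. With library totals alone 12 were lower and 2 higher, and with limma on FPKM 12 were lower and 1 higher. P4HB (protein disulphide isomerase), with the highest average CPM, went from 2649 ± 107 to 1196 ± 35.1 CPM (-1.15, SE 0.0487). FAM20C, the kinase that phosphorylates secreted proteins, went from 56.8 ± 2.24 to 16.4 ± 1.33 CPM, the largest fall of the list (adjusted p = 4.16e-23, edgeR). FURIN, a protease of the secretory route, was the one higher gene (0.63, SE 0.0560).

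Hepatocyte markers fell beside the members. Of 14 listed, all were tested, 13 were lower and none higher, with a median of -1.52, near the values of FGA and FGG. Their summed level ranged from 41339 to 43169 CPM in sh-ctrl and from 18083 to 19343 CPM in sh-KIF11. ALB (albumin) had 135961, 146302 and 158044 counts, against 63485, 60781 and 55445 after knockdown, a change of -1.49 (SE 0.0579). This value differed from those of FGA and FGG by less than their SE, but ALB was picked with its value in view. TF (transferrin) had the largest fall (-2.28, SE 0.0511), and APOB, with the highest average CPM of the markers, the smallest that passed (-0.35, SE 0.0535). The part of this general fall in the change of the members was not tested.

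Markers of other cell types were at or near 0 where they define the type. PF4, GP1BA and GP9 of platelets were at 0 counts, the summed platelet list was 0.0593 to 0.720 CPM in sh-ctrl against 0.386 to 0.648 in sh-KIF11, and 1 of 6 genes could be tested, ITGA2B, which did not pass (adjusted p = 0.281, edgeR). TEK and ERG of endothelium were at 0 counts, the endothelial sum was 3.16 to 3.56 CPM against 4.69 to 4.98, and VWF alone was higher (1.01). PTPRC, which defines leukocytes, had at most 1 count. The leukocyte list summed to 2488 to 2985 CPM against 508 to 640, nearly all of it LYZ (lysozyme, -2.35), and the 4 tested genes, CD68 (-0.90) with the smallest fall, were lower. DCN of fibroblasts was at 0 counts, the fibroblast sum was 2.55 to 3.93 CPM against 1.40 to 2.04, and PDGFRB alone passed (-1.16).

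**Figure D5:**
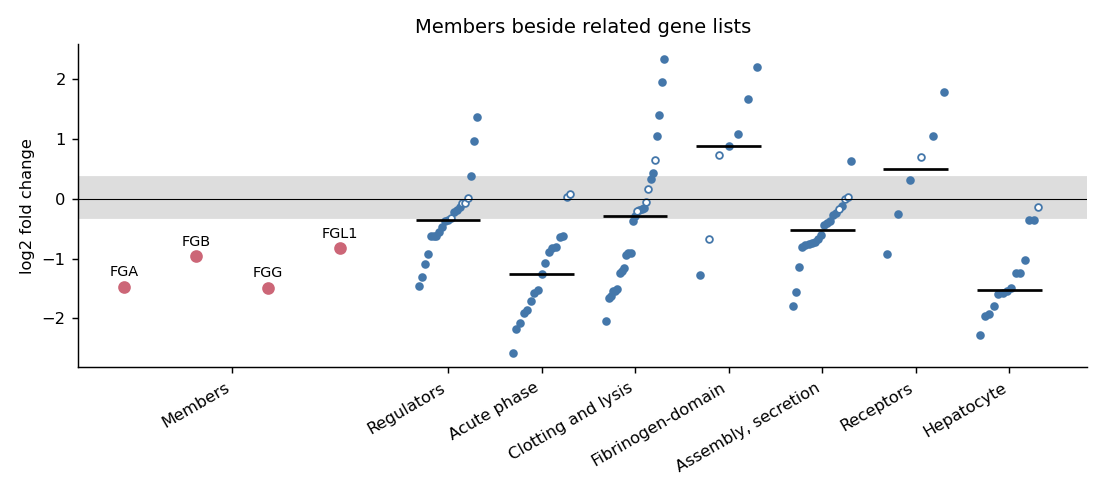
Log2 fold change of the 4 members (red) and of the tested genes of 7 related lists, each sorted by value. Filled points passed an adjusted p of 0.05 and open points did not, the black bar is the list median, and the grey band spans the middle quartiles of all tested genes; the hepatocyte median is -1.52 and the acute phase median -1.27.

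The genes whose pattern over the 6 libraries lay nearest the mean of FGA, FGB and FGG were XBP1, SYNE3, ZCCHC24, ANKRD39 and AFP. Nearness was the root mean square distance between log2 CPM values after removal of each gene's mean, among genes that averaged 1 CPM or more. XBP1, a transcription factor of the secretory pathway, was at a distance of 0.0528 and went from 849 to 350 CPM (-1.28). AFP (α-fetoprotein), at 0.0664, went from 2825 to 1200 CPM (-1.23). SYNE3, a nuclear envelope gene, was at 0.0605, and both ZCCHC24 and ANKRD39 were at 0.0635. The members themselves lay further from their own mean, with 17 genes nearer than FGA, 22 nearer than FGG and 187 nearer than FGB, and 435 genes lay nearer than FGL1. With 2 groups, this distance mostly reflects how far the fold change of a gene lies from the mean change of the chains. That mean falls between FGB (-0.96) on one side and FGA (-1.48) and FGG (-1.49) on the other. A small distance thus describes a fall of similar size, and shared regulation was not tested.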

How the data were processed

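Poly(A) RNA of 6 HepG2 libraries was made into stranded libraries and sequenced with paired reads on an Illumina HiSeq instrument. The authors deposited raw counts per gene, not normalised. The deposited FPKM table holds the 20030 genes again, scaled by the authors to length and library size. The submitters' processing notes name bcl2fastq 1.8.4, Trimmomatic, HISAT2 2.1.0, Cufflinks 2.2.1, HTSeq 0.9.1, DESeq and the build GRCh38 (hg38). By the study's methods, raw reads were processed with Trimmomatic and those of low quality were discarded. The role of each other tool and the strand setting of the counting are not given in the sources used here. Groups and replicate numbers came from the sample titles. The knockdown columns are named only as shRNA and were taken as sh-KIF11, since the labels list no other hairpin besides the control. The labels give no batch or date. The remaining columns hold gene annotation and were not used.

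Counts were tested in R 4.3.3 with edgeR 4.0.16 (TMM factors, filterByExpr, quasi-likelihood fit with the group as its only term, common dispersion 0.00237), which kept 12369 genes and left out 7661. P-values were two-sided and adjusted by the Benjamini-Hochberg method over all tested genes, with a threshold of 0.05. Ratios between members were tested by scaling each library to the count of the reference member. Intervals are 95% and cover the spread estimated by the fit. A prior count of 2 entered log2 CPM. A count of 3 in a library corresponds to 0.145 to 0.178 CPM, which covers counting error only. Genes named beside the members were, in each of 13 lists, those with the largest and the smallest change among called genes and the one with the highest mean CPM, nearest neighbours, a fixed set of regulators and the 5 most similar genes. ALB, CEBPD and RXRA, and genes named for counts at or near 0, were picked with their values in view. The results of 1 gene that meets this rule are not reported here. The members and lists were chosen with earlier results of these data known. Alternatives were DESeq2 1.42.0, limma 3.58.1 on log2(FPKM + 1) and log2(FPKM + 0.1), RLE and upper-quartile factors, library totals, TMM without the members, other filters, the replicate number as a block and each library left out.

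On simulated counts with 202 genes changed by 1 on the log2 scale among 11931, edgeR recovered 98.5% of these and called 12 unchanged genes. Far fewer genes changed there than the 69.1% called in the data, so the simulation does not cover error under such a shift. In the simulated fit scaled to FGG, the median error of the changed genes was 0.103 on the log2 scale. With 3 libraries per group, an exact permutation test cannot go below 0.1.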

Additional observations from a re-analysis of the deposited data

How the results depend on the processing

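FGA, FGB, FGG, FGL1 and KIF11 kept their direction and their call in all 16 alternatives. Leaving out 1 library at a time gave -1.56 to -1.42 for FGA, -1.08 to -0.90 for FGB, -1.56 to -1.44 for FGG and -0.88 to -0.75 for FGL1. Scaling by library totals alone moved the median of all tested genes to 0.24, and the members to -1.25, -0.73, -1.26 and -0.60 in the same order; it called 6621 genes higher and 2373 lower. With limma on FPKM 2596 (pseudocount 1) or 2597 (0.1) genes were lower. The change of FGA relative to FGG was -0.00112 with limma on the FPKM ratio and -0.00834 to 0.0309 with 1 library left out. FGL1 relative to FGB was 0.0481 to 0.212 with 1 library left out. The FGB share rose by 3.04 points on raw counts and, on the added scale of counts per kilobase of GENCODE exons, by 3.96, where the FGA share changed by -1.98. The chromosome 4 neighbours had 4 calls under library totals and under limma on log2(FPKM + 1) or log2(FPKM + 0.1). Fibroblast markers had 2 calls without a filter. Genes with the fibrinogen-like domain had 2 calls with at least 10 counts in every library and 3 to 5 with 1 library left out, and platelet markers 0 to 1.

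Of 748 values of 47 other named genes under these alternatives, 726 kept direction and call and 12 in 3 genes changed sign. PLRG1 was 0.0633 with upper-quartile factors, 0.22 with library totals, 0.0105 with at least 10 counts, 0.14 and 0.15 with limma on FPKM, and -0.0453 to 0.0448 with 1 library left out. STAT3 was 0.00217 with upper-quartile factors, 0.15 with library totals and 0.13 and 0.14 with limma, and IL6R was 0.0101 with library totals.

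Same-numbered libraries of the groups did not deviate together (correlations 0.0300, -0.0185 and -0.00253). With the replicate block the log2 fold changes were -1.48, -0.97, -1.49 and -0.83 for FGA, FGB, FGG and FGL1, and 12024, 10749 and 12049 genes passed relative to FGA, FGB and FGG. The labels do not say that libraries are separate cultures, 1 hairpin group was compared with 1 control, and overlapping or antisense genes limit FGL1.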
